A study of Sus scrofa with 20 samples.

Results

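The state left when polycystin-1 (PC1) and myocardin-related transcription factor A (MRTF-A) were silenced together was compared with control silencing, across all transcripts of the RNA-Seq table. The comparison took the 4 siPC1+siMRTF-A libraries and the 4 siNR libraries, 8 of the 20 libraries in the series, as the sample labels group them. The table lists 46295 transcripts, of which 27702 had enough counts to be tested and 8733 were at 0 in every library. The cells were LLC-PK1, an epithelial line from pig proximal tubule, transfected with a non-related siRNA (siNR, 4 libraries), with siRNA against PC1 (siPC1, 5), against polycystin-2 (siPC2, 3), or with either of these together with siRNA against MRTF-A (siPC1+siMRTF-A, 4, and siPC2+siMRTF-A, 4). MRTF-A was not silenced on its own in any group, so that the effect of MRTF-A silencing in cells with intact polycystins cannot be read from these groups. All groups are of 1 cell line, the siRNAs act transiently, and the labels do not say whether libraries of a group came from separate cultures, so that p-values measure the spread between these libraries, which may be technical.

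PC1, the product of PKD1, is a large membrane protein that partners with the channel polycystin-2, and loss of either causes autosomal dominant polycystic kidney disease, in which tubule epithelium forms cysts and the kidney becomes fibrotic. MRTF-A is held in the cytoplasm by monomeric actin. When actin polymerizes, it moves to the nucleus and, with serum response factor, drives genes of the cytoskeleton, contractility and matrix. Comparing cells under combined silencing with control cells asks how much of the expression change after PC1 silencing is present when MRTF-A is silenced too.

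The files do not pair transcript identifiers with gene names. The knockdown of the siRNA targets, the markers of tubule epithelium and the cytoskeletal, matrix and inflammatory gene lists were therefore not analysed here, and only 2 transcripts that rose and 2 that fell are named, by identifier. A value of 1 transcript carries a further uncertainty, since a read that matches more than 1 transcript was apportioned among them by estimation.

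The siNR libraries held between 35523102 and 50599719 estimated counts, and the siPC1+siMRTF-A libraries between 22874625 and 52367885, replicate 4 being the shallowest. A normalized count of 100 rested on 86.3 to 122.2 reads in siNR libraries and on 59.8 to 146 in siPC1+siMRTF-A libraries. Elsewhere, siPC1 replicate 1 (4421001) and siPC2 replicate 2 (11790504) were far shallower. They also enter the shared estimate of the spread, the filter and the mean count, and without siPC1 replicate 1 the counts of raised and lowered transcripts given next were 4227 and 3736. Among the 20212 transcripts whose mean normalized count reached 50, the median SD between replicates on the log2 scale was 0.20 for siNR and 0.15 for siPC1+siMRTF-A (n = 4 each). No pair of replicates differed by as little as sampling noise, the chi-square statistic per degree of freedom being 16.57 or more between siNR libraries and 11.09 or more between siPC1+siMRTF-A libraries.

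Measured over the 20212 transcripts whose mean normalized count reached 50, the combined state lay apart from control. The distance between libraries was taken as the root mean square difference of log2 normalized counts over these transcripts. Between an siPC1+siMRTF-A and an siNR library it was 1.36 to 1.65 (16 pairs, median 1.499), whereas it was 0.87 to 1.14 among siPC1+siMRTF-A libraries (6 pairs, median 1.02) and 0.97 to 1.11 among siNR libraries (6 pairs, median 1.05). The ranges between and within the groups did not overlap. Replicate 4, the shallowest siPC1+siMRTF-A library, lay 1.12 to 1.14 from the other 3, and the other 3 lay 0.87 to 0.92 from each other. The combined libraries lay closer to the siPC2+siMRTF-A libraries (0.89 to 1.24, median 1.08) and to the siPC1 libraries (0.93 to 2.09, median 1.16) than to siNR by the median. All distances above 2 were to siPC1 replicate 1, and those to the other siPC1 libraries were 0.93 to 1.45. The siPC1 median includes that shallow library, so these medians do not rank siPC1 against siPC2+siMRTF-A. Since low counts add sampling noise to a distance, the shallow libraries weigh on these ranges, and no test was made of them.

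**Figure D1:**
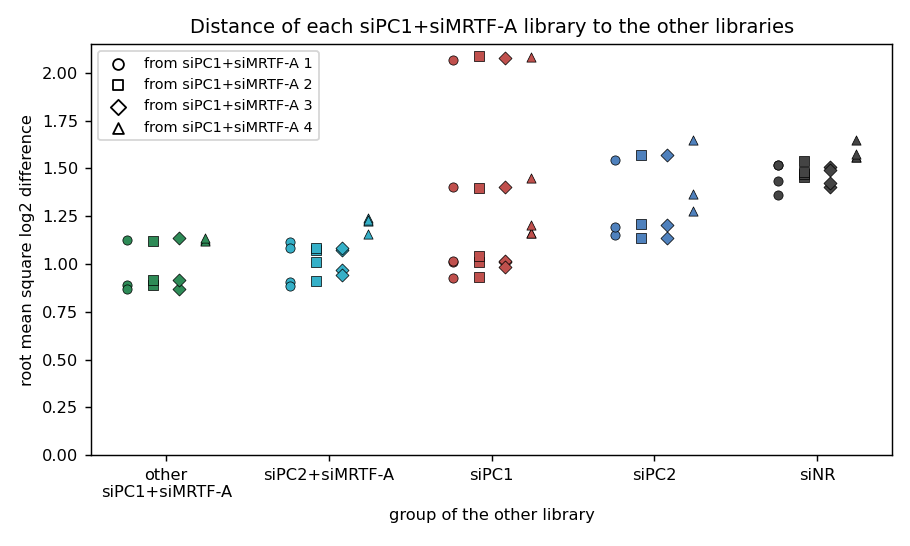
Each point is the distance from 1 siPC1+siMRTF-A library (symbol and position within a group of points) to 1 other library. Points are grouped by the other library's group, and the y axis, from 0, is the root mean square log2 difference. It was taken over the 20212 transcripts whose mean normalized count reached 50. Distances to siNR, 1.36 to 1.65, lie above those within the combined group, at most 1.14, and the points above 2 are the distances to siPC1 replicate 1.

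Combined silencing changed 7674 of 27702 tested transcripts (27.7%), of which 4088 rose (14.8% of those tested) and 3586 fell (12.9%). A call required 3 things: an edgeR quasi-likelihood p, adjusted by Benjamini-Hochberg over the tested transcripts, no larger than 0.05; a log2 fold change beyond 0.6 in either direction; and a normalized count averaging 50 or more over the 20 libraries. Among the 20212 transcripts at or above that mean, 38% were called. Without the fold and count criteria, 12644 transcripts had an adjusted p of at most 0.05, and 14143 had an unadjusted p below 0.05. The median log2 fold change over all tested transcripts was 0.01, so that the changes were spread on both sides of a center near 0. The direction of the surplus depends on the scaling, since 53.3% of called transcripts rose with TMM factors, 63.0% with library totals and 49.7% with the RLE factors of edgeR. With library totals the median of all transcripts shifted to 0.12.

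**Figure D2:**
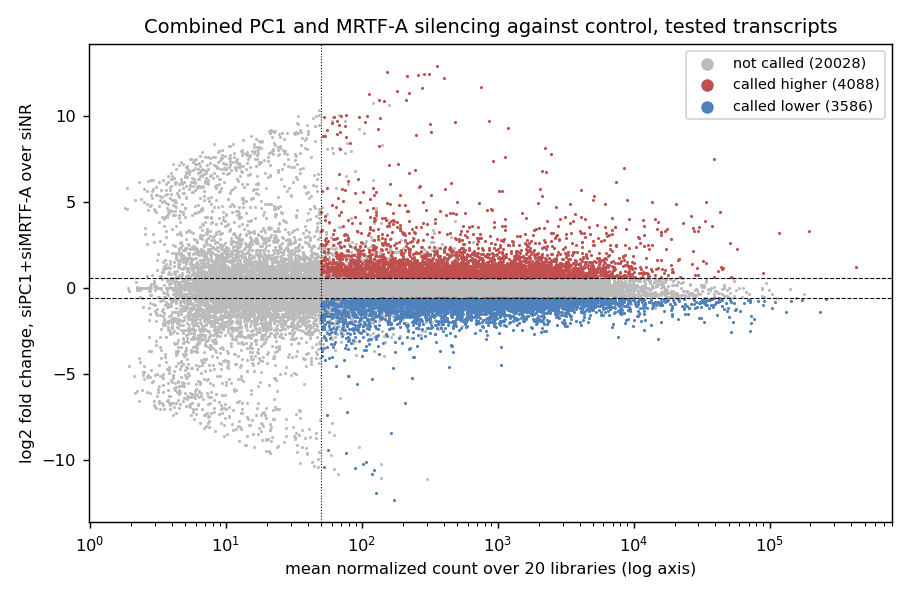
Each point is 1 of 27702 tested transcripts; the x axis is the mean normalized count over 20 libraries on a log axis, the y axis the fitted log2 fold change of siPC1+siMRTF-A over siNR. The 4088 transcripts called higher (red) and 3586 called lower (blue) lie beyond the dashed lines at 0.6 and right of the dotted line at a mean of 50; a fitted value against a group at 0 is no measure of size.

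Most of the changes were moderate. Among transcripts that rose, the median log2 fold change was 1.03 (quartiles 0.79 and 1.45, median SE 0.15), and the median normalized count was 383 in siNR and 851 in siPC1+siMRTF-A libraries. A doubling was exceeded by 2148 of the 4088 (52.5%), a log2 fold change of 2 by 533 and of 3 by 268. Among transcripts that fell, the median was -0.99 (quartiles -0.77 and -1.37, median SE 0.14), from a median normalized count of 1097 to 514. A halving was exceeded by 1771 of the 3586 (49.4%), a log2 fold change of -2 by 282 and of -3 by 67. The transcripts that fell thus had the higher counts in control libraries, which their choice by direction favors. Over all 20 libraries, the median of the mean normalized count was 708.5 for raised and 696.1 for lowered transcripts. Counts depend on transcript length as well as on level. Rises beyond a log2 fold change of 3 outnumbered falls of that size. Close to the threshold, 565 transcripts rose and 534 fell by a log2 fold change of 0.6 to 0.7, and 557 and 524 that otherwise met the criteria lay just under it, at 0.5 to 0.6, and were not called.

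The groups did not overlap for 3936 of the 4088 raised transcripts and for 3506 of the 3586 lowered ones. The calls rest on these same libraries and so favor groups that do not overlap. For the remaining 152 and 80, at least 1 siPC1+siMRTF-A library lay within the siNR range. Over all tested transcripts, the 4 siPC1+siMRTF-A libraries lay above the 4 siNR libraries for 24.3% and below for 22.5%, 46.9% in all. In bulk libraries, a change in the share of cells expressing a transcript and a change of its level per cell cannot be told apart, and this holds for each result given here.

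The called share was larger at higher counts. In 4 equal groups of 5053 transcripts by mean normalized count, 16.7% rose and 15% fell in the lowest group (means of 50.01 to 212), against 22.3% and 20.3% in the highest (means above 1553). The median SE of the log2 fold change went down over the same groups, from 0.34 to 0.10, so that low transcripts needed larger changes to be called. Transcripts whose deposited counts are whole numbers in all libraries (within 1e-09, a count of 0 included) show no sign of reads divided by estimation, and were few. Of 984 tested, 278 reached the mean of 50, and 158 of these were called: 69 rose, with a median log2 fold change of 1.48, and 89 fell, with a median of -1.43. That was 56.8% of the 278, compared with 37.7% of the 19934 other transcripts at that mean. The whole-number transcripts had lower counts, with a median mean normalized count of 95.3 against 617, and whether the difference in called share comes with the counting or with the kind of transcript was not tested.

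The changes moved a large portion of the message pool. The 4088 raised transcripts held 9.49% ± 0.813 of the counts in siNR libraries (SD, n = 4, 8.82 to 10.7) and 26.4% ± 0.896 in siPC1+siMRTF-A libraries (n = 4, 25.5 to 27.2), a gain of 16.9 percentage points. The 3586 lowered transcripts held 39.15% ± 1.28 in siNR (37.6 to 40.6) and 20.7% ± 0.970 in siPC1+siMRTF-A libraries (19.45 to 21.7), and their share fell by 18.5 points. Every combined library lay above every siNR library for the first share and below for the second, which the choice of these transcripts fixes. A small part of the transcripts held much of the shift. Of the 4088 raised ones, the 10 of largest gain made up 19.4% of it and the 100 largest 44.9%. Of the 3586 lowered ones, the 10 largest made up 15.8% and the 100 largest 50.03%. No single transcript dominated, the largest gain being from 0.655% to 1.66% of the counts and the largest loss from 0.849% to 0.350%. Libraries outside the comparison that chose these transcripts entered through the shared estimate of the spread, the filter and the mean count. They gave values nearer to the combined than to the control libraries. The raised ones held 24.55 to 25.5% in siPC1, 19.1 to 20.4% in siPC2 and 20.9 to 21.8% in siPC2+siMRTF-A libraries, and the lowered ones 21.3 to 22.5%, 24.6 to 26.9% and 23.55 to 24.9%. The siPC1 range met that of the combined libraries in the first share and overlapped it in the second.

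**Figure D3:**
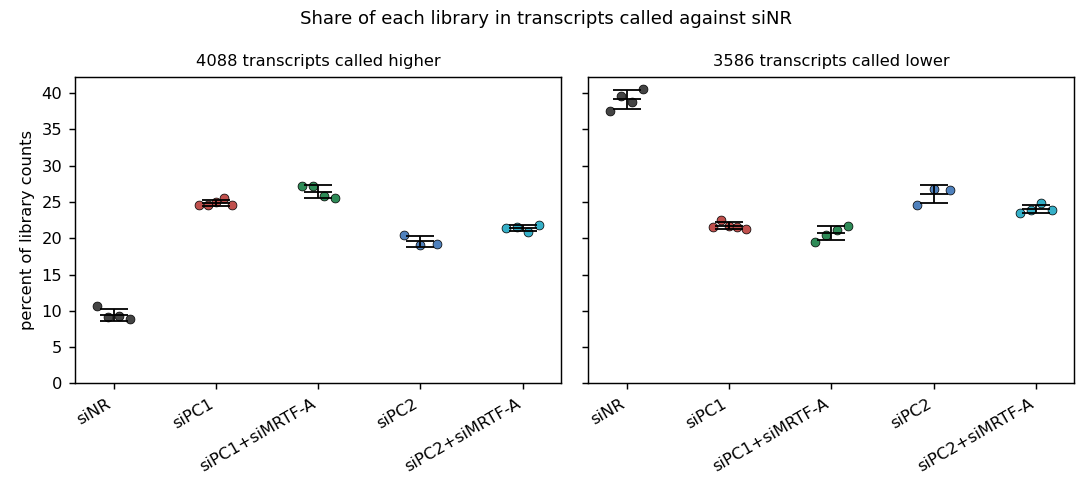
Percent of each library's estimated counts (y axis, from 0) in the 4088 transcripts called higher and the 3586 called lower in siPC1+siMRTF-A against siNR; points are libraries, bars mean and SD. The siNR libraries stand at 8.82 to 10.7% and 37.6 to 40.6%, the siPC1+siMRTF-A libraries at 25.5 to 27.2% and 19.45 to 21.7%, and the siPC1, siPC2 and siPC2+siMRTF-A libraries lie nearer to the combined than to the control libraries.

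Some transcripts were detected in only one of the groups. Of 566 tested transcripts at 0 in all 4 siNR libraries, 33 were called higher in the combined state, with mean normalized counts of 32.9 to 957 there (median 124). Against a floor of 3 counts per library, these were at least 10.9-fold to at least 318-fold higher (median 41.1). In 21 of the 33, every siPC1+siMRTF-A library lay above 0. Of these 33 transcripts, 1 was also at 0 in all siPC1 libraries, so that the others had counts after PC1 silencing alone. In the opposite direction, 438 tested transcripts were at 0 in all 4 siPC1+siMRTF-A libraries, and 10 were called lower. Their siNR means were 85.2 to 650 (median 173), at least 27.5-fold to at least 210-fold above the combined libraries, and for 5 of them every siNR library lay above 0. Only 2 of the 10 were also at 0 in all siPC1 libraries. Most transcripts at 0 in one group were scarce in the other, with a median mean of 10.6 in the combined and of 8.62 in the control libraries.

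Such transcripts led the ranking by fitted fold change. Among the 10 largest rises, whose groups did not overlap, 9 were at 0 in siNR, with means of 304 to 1996 over the 10 in the combined libraries, and those 9 were at least 101-fold to at least 318-fold higher. Of the 10, 9 were also called higher in siPC1 than in siNR, and 4 were called different between siPC1+siMRTF-A and siPC1. Over all tested transcripts, these shares were 15% and 2.29%. Both comparisons share libraries with the ranking, which favors such calls, since a transcript at 0 in siNR is easily called against it. Among the 10 largest falls, 5 were at 0 in the combined libraries (siNR means of 152 to 816 over the 10, at least 49-fold to at least 210-fold lower for the 5). Of these 10, 6 were also called in siPC1 against siNR and 2 differed from siPC1, against 28.1% and 2.29% of all tested transcripts. The ranking favors these calls too.

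The largest rise was that of ENSSSCT00000007031.5. Its normalized counts were 0, 0, 0 and 0 in siNR and 1040, 1200, 839 and 751 in siPC1+siMRTF-A libraries 1 to 4 (957 ± 201, n = 4), which is at least 318-fold higher (edgeR, adjusted p = 2.77e-11). No siNR library had a count, and the lowest of the combined libraries was replicate 4, the shallowest. The counts were 266 to 591 in siPC1 (401 ± 121, n = 5), 103 to 152 in siPC2 (134 ± 27.2, n = 3) and 182 to 271 in siPC2+siMRTF-A libraries (230 ± 45.1, n = 4). The combined libraries lay above every library of the other groups. Its choice as the largest rise in these libraries favors high values there, also in the comparisons that follow. Against siPC1 the log2 difference was 1.25 (SE 0.22, edgeR adjusted p = 0.00193), and against siPC2+siMRTF-A it was 2.05 (SE 0.24, edgeR adjusted p = 3.05e-05). Its counts were divided by estimation in all libraries above 0.

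The rise with the smallest p was that of ENSSSCT00000058795.3, a transcript of high counts whose replicates were very close. Normalized counts were 1790, 1790, 1760 and 1830 in siNR (1790 ± 26.3, n = 4) and 6680, 6370, 6500 and 6370 in siPC1+siMRTF-A libraries (6480 ± 145, n = 4), a 3.62-fold difference (log2 1.85, SE 0.04, edgeR adjusted p = 9.77e-16). The groups were far apart relative to their spread, which the choice by smallest p favors. It stood at 4710 ± 114 in siPC1 (n = 5), 3590 ± 136 in siPC2 (n = 3) and 5520 ± 37.3 in siPC2+siMRTF-A libraries (n = 4), with no overlap between any of the 5 groups. The difference between siPC1+siMRTF-A and siPC1, 0.46 on the log2 scale (SE 0.03, edgeR adjusted p = 1.4e-07), was larger than the spread between libraries but under the fold threshold.

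The largest fall was that of ENSSSCT00000061563.3, with normalized counts of 740, 763, 705 and 390 in siNR (650 ± 174, n = 4) and 0 in all 4 siPC1+siMRTF-A libraries, at least 210-fold lower (edgeR, adjusted p = 0.0127). It was at 0 in all 5 siPC1 libraries too. Both PC2 groups were mixed: 0, 308 and 164 in siPC2 and 406, 0, 0 and 0 in siPC2+siMRTF-A libraries, and the combined state was not called different from siPC2+siMRTF-A (edgeR, adjusted p = 0.0919). Its siNR counts were not whole numbers and so include reads apportioned by estimation, whose part in the result was not tested.

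The fall with the smallest p was that of ENSSSCT00000029285.4, whose counts were whole numbers by the same tolerance in all siNR and siPC1+siMRTF-A libraries. Normalized counts were 1980, 2230, 2420 and 2600 in siNR (2310 ± 264, n = 4) and 212, 238, 206 and 199 in siPC1+siMRTF-A libraries (214 ± 16.8, n = 4), 0.0924 of the control level (log2 -3.43, SE 0.10, edgeR adjusted p = 1.62e-13). All combined libraries lay far below the lowest control library, which the choice of this transcript favors. The level after siPC1 alone, 151 to 213 (184 ± 28.3, n = 5), overlapped that of the combined libraries, with a log2 difference of 0.20 (SE 0.10, edgeR adjusted p = 0.28). The counts were 1530 to 1550 in siPC2 (n = 3) and 1350 to 1400 in siPC2+siMRTF-A libraries (n = 4), all below the lowest control library. Against siNR the log2 fold change was -0.58 in siPC2 (edgeR adjusted p = 0.000172, under the fold threshold) and -0.75 in siPC2+siMRTF-A (edgeR adjusted p = 3.48e-06, called lower). The log2 difference between siPC1+siMRTF-A and siPC2+siMRTF-A was -2.68 (SE 0.10, edgeR adjusted p = 3.31e-11).

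**Figure D4:**
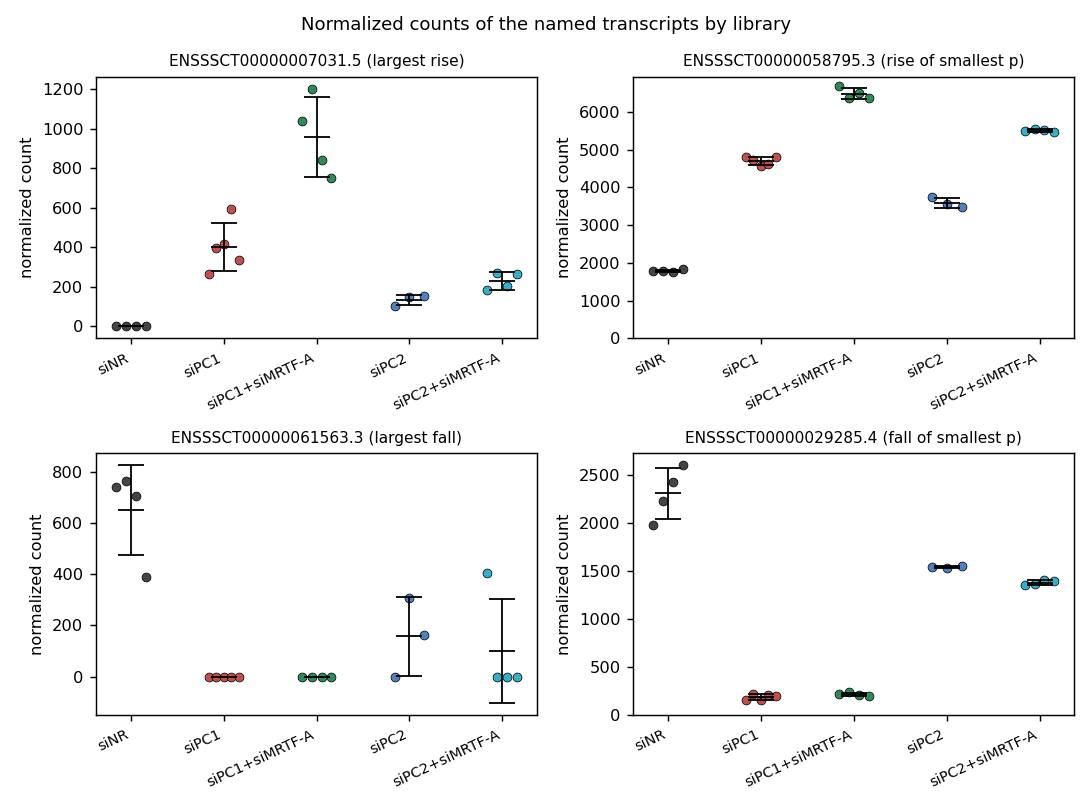
Normalized counts (y axis, linear) of the 4 named transcripts in each library (points) of the 5 groups, with mean and SD as bars. ENSSSCT00000007031.5 and ENSSSCT00000058795.3 are highest with PC1 and MRTF-A silenced together; ENSSSCT00000061563.3 is at 0 in the siPC1 and siPC1+siMRTF-A libraries, and ENSSSCT00000029285.4 is at 238 or lower in both and at 1350 or higher elsewhere.

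To see how far the combined state differed from PC1 silencing alone, the 2 groups were compared directly. Of all tested transcripts, 327 were higher with siMRTF-A added (1.18%) and 306 lower (1.1%) by the same criteria, 2.29% in all. Which of these counts was the larger changed with the scaling and with single libraries. In siPC1 against siNR, 4142 were higher (15%) and 3645 lower (13.2%), 28.1% in all. For comparison with the same control libraries, the median log2 fold change of the 4088 raised transcripts was 1.03 in the combined state, 0.99 in siPC1, 0.78 in siPC2 and 0.86 in siPC2+siMRTF-A, and for the 3586 lowered transcripts -0.99, -0.97, -0.69 and -0.80. These values share the siNR libraries, and the combined libraries chose the transcripts.

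Of the 4088 transcripts raised over control, 162 (3.96%) were higher than in siPC1 alone and 36 (0.881%) lower. For 3890 no difference was called. The 95% interval of the difference lay within 0.6 log2 units on either side of 0 for 2617 of these (64% of the 4088) and reached beyond 0.6 for 1273, for which a difference of that size is not excluded. Without the fold threshold, 631 were higher than in siPC1 and 266 lower among the transcripts then raised over control. Of the 3586 transcripts lowered below control, 162 (4.52%) were lower than in siPC1 alone and 57 (1.59%) were higher. No difference was called for 3367, with intervals within 0.6 for 2207 (61.5% of the 3586) and reaching further for 1160. The median difference from siPC1 was 0.08 for raised and -0.06 for lowered transcripts (median half-width of the interval 0.29 and 0.28).

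The balance of these counts depended on which comparison chose the transcripts. Choosing by the combined state favors transcripts that happened to be further from control in those libraries. Among the transcripts called in siPC1 against siNR, 96 of the 4142 raised ones were higher with siMRTF-A added and 108 lower, and 114 of the 3645 lowered ones were higher and 62 lower. That choice leans the other way, since it rests on the siPC1 libraries. The comparison of siPC2 with siNR shares no library with the direct comparison, although both use the shared estimate of the spread, the filter and the mean count. Of 3333 raised by siPC2 (12% of those tested), 121 (3.63%) were higher and 90 (2.7%) lower with siMRTF-A added to siPC1, and of 2800 lowered by siPC2 (10.1%), 75 (2.68%) were higher and 58 (2.07%) lower. The surplus of higher over lower did not hold under every alternative: with the test against the fold threshold (glmTreat) the raised set gave 16 higher and 18 lower, and the lowered set gave 35 and 40 with only the groups compared in the model and 69 and 69 without the libraries of lowest total. Each of the 4 shares first given lay above the background of 1.18% and 1.1% over all tested transcripts, which include transcripts too scarce to be called.

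The 162 transcripts above both siNR and siPC1 fell into classes by their call in siPC1 alone. In 96 the rise was already called in siPC1 and went further with siMRTF-A, from a median log2 fold change over siNR of 2.07 to 3.17 (direct difference 0.60 to 2.62, median 0.90). In 65 no rise was called in siPC1 (median 0.26), and the median with both silenced was 1.10, 40 of them beyond a log2 fold change of 1. The siPC1 values of the 65 ran from -0.484 to 0.599, so that the lack of a call does not show that siPC1 left them unchanged. In the remaining transcript, a fall in siPC1 (-0.60) became a rise (0.66). The library medians of the 96 were 1.83 to 2.32 in siPC1 and 3.06 to 3.42 in siPC1+siMRTF-A, and those of the 65 were 0.02 to 0.35 and 1.06 to 1.16, without overlap, which their choice fixes. The siPC2 and siPC2+siMRTF-A libraries were outside the comparisons that formed the classes. They entered through the shared estimate of the spread, the filter and the mean count. For the 96, their library medians were 2.12 to 2.19 and 2.41 to 2.70, and for the 65 they were 0.57 to 0.59 and 0.91 to 0.998. In both classes the siPC2+siMRTF-A libraries thus stood above the siPC2 libraries without overlap, by less than in the PC1 pair, which chose them.

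The 162 transcripts below both siNR and siPC1 divided in the same way. In 62 the fall went from a median log2 fold change of -1.02 in siPC1 to -1.80 in the combined state. In 94 no fall was called in siPC1 (median -0.11) and the median was -1.03 with both silenced, 49 of them beyond -1. The siPC1 values of the 94 ran from -0.967 to 0.520, and here too the lack of a call does not show an unchanged level. For the other 6, a rise over control in siPC1 (median 0.79) became a fall (median -0.95, direct difference -2.01), and their median was 0.47 in siPC2 and -1.32 in siPC2+siMRTF-A. Library medians of the 94 ran from -0.21 to -0.06 in siPC1 and from -1.12 to -0.997 in the combined libraries. In the PC2 groups, whose fold changes did not choose them, they ran from -0.22 to -0.14 in siPC2 and from -0.95 to -0.79 in siPC2+siMRTF-A libraries. Those of the 62 ran from -0.92 to -0.65 in siPC2 and from -1.40 to -1.27 in siPC2+siMRTF-A libraries. The siPC2+siMRTF-A libraries lay below the siPC2 libraries for both classes.

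Other transcripts lay nearer to control than in siPC1 alone. The rise was smaller but still called in 36, with a median log2 fold change of 1.90 in siPC1 and 1.04 in the combined state. In 66 transcripts raised in siPC1 (median 1.02), the level with both silenced was called lower than in siPC1 and not called different from siNR (median 0.11, library medians 0.06 to 0.15). On the other side, 57 fell less than in siPC1 (median -1.98 and -1.25), and 56 were lowered in siPC1 (-0.98) and not called in the combined state (-0.19, library medians -0.21 to -0.18). A level not called different from control is not shown to equal it: the siPC1+siMRTF-A libraries lay entirely on one side of the siNR libraries for 17 of the 66 and 18 of the 56. In the PC2 groups the medians of the 66 were 0.75 in siPC2 and 0.25 in siPC2+siMRTF-A, and those of the 56 were -0.63 and -0.21. For the 36 and the 57 they were 1.63 and 1.17, and -0.97 and -0.64. In these 4 classes the siPC2+siMRTF-A median was nearer to control than the siPC2 median.

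**Figure D5:**
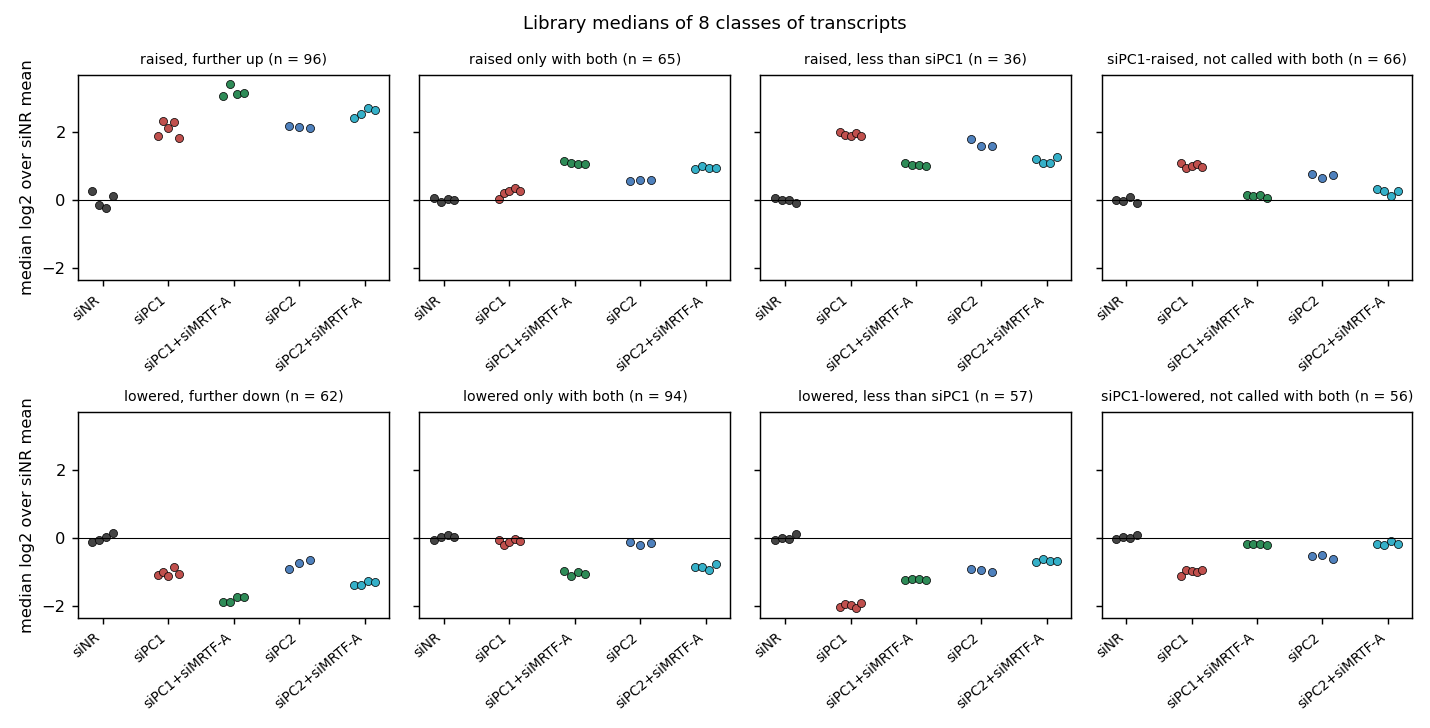
Each point is 1 library's median log2 normalized count relative to the siNR mean (y axis) over the transcripts of a class, for 8 classes formed from the siNR, siPC1 and siPC1+siMRTF-A libraries ("both" stands for siPC1 and siMRTF-A together). The classes named "only with both" had no call in siPC1 alone, which does not show an unchanged level there. The siPC2 and siPC2+siMRTF-A libraries differ in the same direction as the siPC1 and siPC1+siMRTF-A libraries in each panel. They were outside the comparisons that formed the classes, and entered through the shared estimate of the spread, the filter and the mean count.

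The combined states of the 2 polycystins were compared as well. Between siPC1+siMRTF-A and siPC2+siMRTF-A, 718 transcripts were higher in the former (2.59% of those tested) and 808 lower (2.92%), 5.51% in all. Of the 4088 transcripts raised over control by siPC1+siMRTF-A, 475 (11.6%) were higher than in siPC2+siMRTF-A and 70 (1.71%) lower, with a median difference of 0.22. Of the 3586 lowered, 468 (13.1%) were lower and 39 (1.09%) higher, with a median difference of -0.24. The intervals lay within 0.6 log2 units of 0 for 1975 of the raised (48.3%) and 1738 of the lowered transcripts (48.5%). The choice of the transcripts by the siPC1+siMRTF-A libraries favors this direction. Of the 96 transcripts raised further by siMRTF-A, 42 were higher than in siPC2+siMRTF-A and 2 lower, and of the 62 lowered further, 25 were lower. Of the 65 and 94 without a call in siPC1 alone, 13 and 4 were higher, 4 and 14 lower, and 48 and 76 not called.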

How the data were processed

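Libraries were grouped by their sample labels. The study's figure legend gives other group sizes without naming libraries, and the labels were followed, also for siPC1 A2. With versions per the submitters' processing notes (the methods give another for Trim Galore), the authors checked reads with FastQC 0.11.8, trimmed them with Trim Galore 0.6.3, estimated transcript counts with Salmon 0.14.1 against Ensembl coding sequences of Sscrofa11.1, and deposited the estimated counts without normalization. HISAT2 is also listed. The counts thus leave out untranslated regions, and a read matching more than 1 transcript was apportioned by estimation. The methods describe sums per gene and a low-count filter, and the table holds neither. Single-read and paired-end sequencing are both given without assignment to libraries, so an effect of layout was not tested.

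Here the estimated counts were rounded and fitted with edgeR 4.0.16 under R 4.3.3: filterByExpr by group, TMM factors and 1 quasi-likelihood model of 5 groups with all 20 libraries. The thresholds of a call were 0.05 for the Benjamini-Hochberg adjusted p, 0.6 for the log2 fold change in either direction and 50 for the mean normalized count. Normalized counts are counts divided by the effective library size and multiplied by its mean over libraries. The SE of a log2 fold change was its size divided by the square root of F. Distances used log2 of the normalized count plus 1. Folds against a group at 0 were set against a floor of 3 counts per library and, like the depth figures, cover counting error only. The total per library limits precision, with a median SE of the log2 fold change of 0.15 over transcripts whose mean normalized count reached 50.

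The gene name table (15623 identifiers) and the RefSeq table (30371 genes) matched 0 transcript identifiers. The rule for naming, without gene names, took the largest rise and fall among called transcripts whose groups did not overlap and the rise and fall of smallest p. The comparison and the lists were chosen with earlier results of these data known. Alternatives were DESeq2 1.42.0, library totals, RLE factors, no low-count filter, no minimum mean, no fold threshold, glmTreat of edgeR at the fold threshold, models of only the groups compared, a replicate block, the lowest totals left out and each library left out. The scripts were tested on simulated data.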

Additional observations from a re-analysis of the deposited data

Results flagged for a closer look

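In groups of 4 or 5 libraries, 3 of 25 sets of values had 1 library far from the others by Dixon's criterion, where chance marks about 1 in 20. ENSSSCT00000061563.3 stood at a normalized count of 390 in siNR replicate 4, with the other control libraries between 705 and 763. The same transcript stood at 406 in siPC2+siMRTF-A replicate 1 and at 0 in the other 3 libraries of that group. The lowered transcripts held 22.5% of the counts in siPC1 replicate 2 and 21.3 to 21.7% in the other siPC1 libraries.

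The effects of the 2 combined treatments, against the same control libraries, were compared by the edgeR test of the difference itself. Of the 4088 raised transcripts, 475 (11.6%) were higher in siPC1+siMRTF-A and 70 (1.71%) lower. Of the 3586 lowered ones, 468 (13.1%) were lower there and 39 (1.09%) higher. Over all tested transcripts, 2.59% were higher and 2.92% lower. The siPC1+siMRTF-A libraries chose these sets, which favors the larger counts. Among the named transcripts the log2 difference, siPC1+siMRTF-A minus siPC2+siMRTF-A, was 2.05 for ENSSSCT00000007031.5 and -2.68 for ENSSSCT00000029285.4. In both, every siPC1+siMRTF-A library lay on the same side of every siPC2+siMRTF-A library. Both were chosen by the siPC1+siMRTF-A libraries against siNR, which favors differences in these directions.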

How the results depend on the processing

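The 4 named transcripts kept their direction and side of the threshold under all 11 alternatives and with each library left out (largest adjusted p 0.0283, for ENSSSCT00000061563.3, by edgeR). Without the fold threshold, counts rose: 5421 lowered against siNR, 1213 higher and 1077 lower than siPC1, 1963 and 2135 than siPC2+siMRTF-A, and 5649 lowered in siPC1 against siNR. By set, 631 were above siNR and siPC1, 266 above siNR and below siPC1, 551 below both, 349 below siNR and above siPC1, 231 and 216 raised or lowered without a call in siPC1, and 222 and 197 called in siPC1 and not in the combined state; 1316 and 1323 were further from control than siPC2+siMRTF-A. Tested against the fold threshold (glmTreat), counts fell: 2568 and 2132 against siNR, 29 and 52 against siPC1, 141 and 131 against siPC2+siMRTF-A, and 2636 and 2246 in siPC1 against siNR. The same sets then held 19, 6, 29, 3, 7, 25, 12, 4, 105 and 78. With only the groups compared in the model, 26 lay below siNR and above siPC1, and 36 were lowered in siPC1 and not called in the combined state; by DESeq2 the latter were 89. Among transcripts raised or lowered by siPC2, those higher and lower with siMRTF-A added to siPC1 were 478 and 421 (raised) and 370 and 293 (lowered) without the fold threshold, 16 and 18 and 5 and 3 with glmTreat, and, for the lowered, 35 and 40 with only the groups compared. The balance of higher against lower turned in other counts too. Against siPC1, where 327 were higher and 306 lower, it turned with glmTreat (29 and 52), library totals (288 and 337), RLE factors (315 and 316), only the groups compared (231 and 265), the lowest totals left out (300 and 357) and the libraries numbered 1 and A2 left out (299 and 305). Against siNR, where 4088 rose and 3586 fell, it turned with RLE factors (3796 and 3848) and DESeq2 (3882 and 3937). For siPC1 against siNR, where 4142 rose and 3645 fell, it turned with the same settings (3892 and 3911, and 3948 and 3977). Against siPC2+siMRTF-A, where 718 were higher and 808 lower, it turned with glmTreat (141 and 131). The shifts in size under both fold settings follow from their construction. For the other alternatives the cause was not tested.

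Leaving out each library gave 3857 to 4227 raised and 3424 to 3736 lowered transcripts against siNR, and no count moved by over 1.5 times. The balance against siPC1 turned without siPC1+siMRTF-A replicate 1 (293 and 308) or 2 (267 and 268) and without siPC2+siMRTF-A replicate 3 (290 and 328). Same-numbered siNR and siPC1+siMRTF-A libraries did not deviate together throughout (Spearman 0.45, -0.01, -0.04 and 0.25 for numbers 1 to 4), so that the numbers were not taken as pairs, and not every library correlated best with its own number. With a replicate block (without siPC1 A2), 4113 transcripts rose and 3586 fell, 7547 of the 7674 calls were kept, and no count moved by over 1.5 times. Leaving out the libraries numbered 1 and siPC1 A2, which deviated together, was chosen after seeing the data and kept 7274 of the calls.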
